A study of Mus musculus with 3 samples.

Results

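The Slc25a genes encode the mitochondrial carrier family, and every row of the deposited table whose symbol starts with Slc25a was taken as a member. The rule found 44 members among 16587 genes. RNA was sequenced from hearts of wild-type (genotype WT) male mice aged 12 weeks, in 3 poly(A)-selected libraries that form a single group with no treatment, so no contrast between conditions was possible. The sources used here name no strain. Sample labels number the libraries 1 to 3 and do not say that they came from separate animals, so the spread between them may be technical.

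Mitochondrial carriers sit mostly in the inner membrane, which ions and metabolites cross only through proteins, and they exchange nucleotides, phosphate, organic acids, amino acids and cofactors between cytosol and matrix. In heart muscle, which makes nearly all of its ATP in mitochondria, the ADP/ATP carrier passes ATP out and ADP in, and the phosphate carrier supplies the other substrate of ATP synthase. Other carriers move fatty acids bound to carnitine, or carry reducing equivalents through the malate-aspartate shuttle.

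Each library held 24914479 to 26398140 counts. Levels are counts per 1000000 of the library total (CPM), and detection meant reaching 1 CPM in each of the 3 libraries. Ratios between genes and the order of members were taken per length, using counts divided by kilobases of annotated exon and rescaled to a sum of 1000000 (TPM). CPM values set side by side are not corrected for length. A count of 0 allows up to 3 counts, which is 0.114 to 0.120 CPM, and these floors cover counting error only. All 8 heart muscle markers were detected, at a summed 80923 to 85795 CPM. Among markers of other tissues, 3 of 6 brown fat, 3 of 9 skeletal muscle, 1 of 6 white fat and 2 of 10 liver markers were detected. The brown fat markers detected were Cox8b, Ppargc1a and Cidea, while Ucp1 had 0 counts. Those of skeletal muscle were Ckm (3872 ± 307 CPM), Acta1 (247 ± 25.8 CPM) and Tnni2 (2.13 ± 0.0753 CPM), while Myh1 had 0 counts. The white fat marker was Fabp4 (1221 ± 92.2 CPM), and the liver markers were Trf and Ahsg. Whether any of this RNA came from tissue other than heart was not tested. Since RNA of heart tissue mixes its cell types, fewer cells of a type and less RNA per cell cannot be told apart.

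The family was broadly present and very unequal in level. Of 44 members 38 were detected, beside 71.3% of all genes in the table. Members together took 1.11%, 1.13% and 1.07% of the counts in libraries 1, 2 and 3, with 95% Wilson intervals of 1.108 to 1.116%, 1.127 to 1.135% and 1.069 to 1.077%. These intervals cover counting error only. The share averaged 1.11 ± 0.0298% (SD, n = 3). Per length the share was 1.22 ± 0.00647% of TPM. The median member stood at 15.5 TPM, against 7.31 TPM for the median of all genes with a length. Without correction for length, at 100 CPM or more stood 9 members, beside 10.4% of all genes, and at 1000 CPM or more stood 2, beside 0.699% of all genes.

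**Figure D1:**
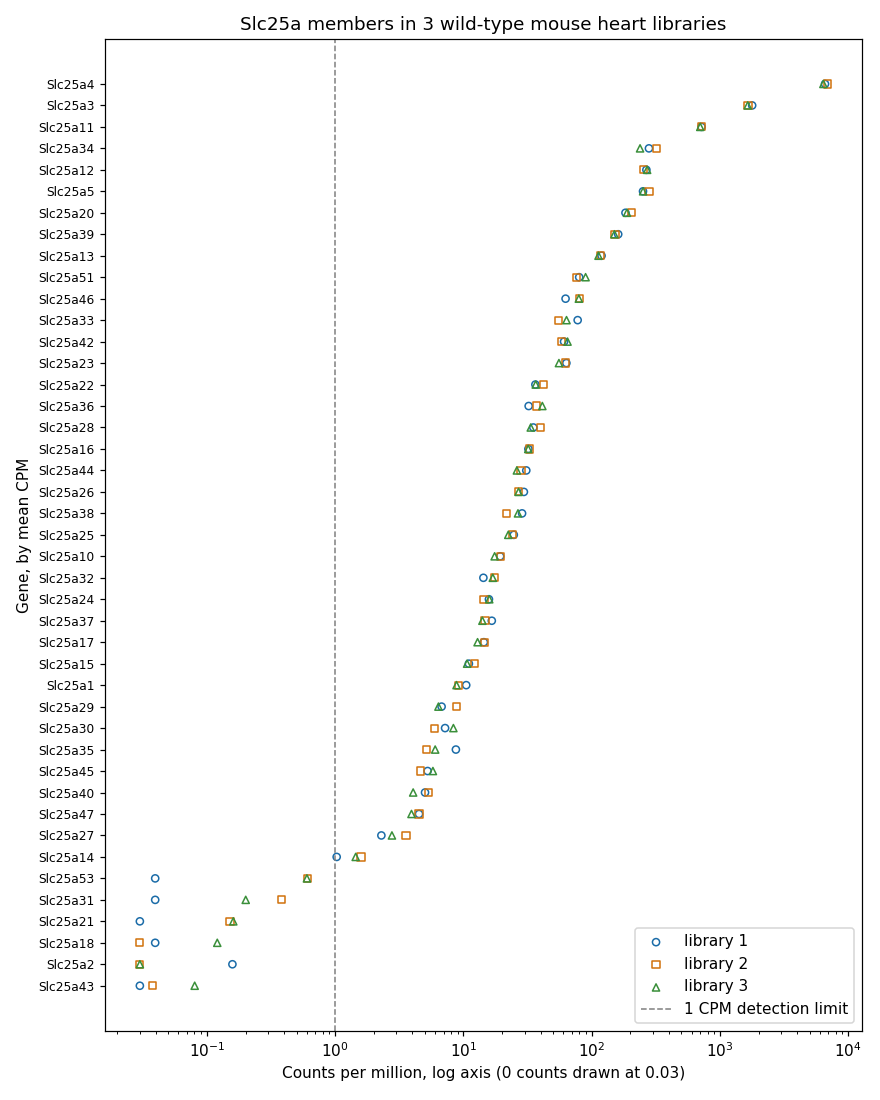
CPM of 43 Slc25a members on a log axis, with 1 point for each of the 3 libraries and members ordered by mean CPM. Slc25a4 lies near 6613 CPM, 37 members lie right of the dashed line at 1 CPM in every library, and 6 lie left of it.

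The promoters of the 9 members at 100 CPM or more show how different the sequence before the start can be among abundant carriers. The 2 shown are the ones with the fewest and the most CpG pairs in the 250 bases before the RefSeq start, on build GRCm38.p6. They belong to Slc25a34, an orphan carrier with no settled substrate, and Slc25a39, a mitochondrial glutathione carrier. Capitals mark AGGTCA on either strand, the half-site bound by many nuclear receptors.

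Slc25a34 (chr4:141623835-141624084, minus strand): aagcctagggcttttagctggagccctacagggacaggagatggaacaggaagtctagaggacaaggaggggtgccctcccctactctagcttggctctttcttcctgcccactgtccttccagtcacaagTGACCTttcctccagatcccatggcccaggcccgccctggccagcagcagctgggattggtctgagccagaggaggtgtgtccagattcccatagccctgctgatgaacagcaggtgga

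Slc25a39 (chr11:102407518-102407767, minus strand): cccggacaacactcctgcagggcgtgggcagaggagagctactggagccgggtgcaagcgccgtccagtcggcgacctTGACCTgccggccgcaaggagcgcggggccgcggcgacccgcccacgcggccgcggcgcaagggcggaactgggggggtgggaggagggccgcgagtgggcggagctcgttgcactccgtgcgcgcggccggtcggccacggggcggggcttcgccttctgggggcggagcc

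The Slc25a34 window holds 1 CpG and the Slc25a39 window 35, with G or C at 58.4% and 77.2% of bases. A promoter entry was found for 34 members, with 44 starts in all. Their windows had a median of 12 CpG, against 6 over all 32851 promoters of the table, and a median GC content of 57.4% against 52.4%. AGGTCA occurred in 4 of the 44 member windows, 9.09%, against 14.02% of all promoters. The pentamer CCAAT, on either strand, occurred in 21 member windows (47.7%) against 33.8% of all promoters. These 21 windows belong to 18 genes. CACGTG, the core E-box, occurred in 8 windows of 7 genes (18.2%) against 6.02%. The TATA box letters TATAAA occurred in 2 windows (4.55%) against 12.4%. The NRF-1 site occurred in 2 (4.55%) against 3.74%, and the ETS site, ccggaagt, in 1 (2.27%) against 2.88%. The ERR site, tcaaggtca, which contains AGGTCA, occurred in 0 windows against 0.387%, and the YY1 site, aagatggc, in 0 against 1.56%. Each was searched on both strands, and a gene with several starts has several windows. These matches are letters in a window and say nothing of bound factors. Across the 34 members, CpG number and mean CPM had a Spearman rho of 0.22, given as a description.

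The ADP/ATP and phosphate carriers took 77.5 ± 0.171% of the family's counts (SD, n = 3). Slc25a4, the ADP/ATP carrier of heart and skeletal muscle, stood at 6590, 6851 and 6399 CPM in libraries 1, 2 and 3. It alone made up 59.8 ± 0.673% of the family's counts and ranked 11 among all genes by CPM and 10 by TPM. Slc25a5, the ADP/ATP carrier of many dividing and non-muscle cells, stood at 251, 280 and 252 CPM. Slc25a31, the ADP/ATP carrier known from male germ cells, had 1, 10 and 5 counts and was not detected. The muscle form was therefore far above both relatives in every library.

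Slc25a4 exceeded Slc25a5 by 4.20, 4.10 and 4.15 on the log2 scale of counts per kilobase, a mean of 17.8-fold. The log2 SD over libraries was 0.05, so the difference was many times the spread. With only 3 libraries the smallest p of an exact two-sided sign-flip permutation test is 0.25, and pair ratios therefore carry no p. Their coding sequences, each 894 bases long, were identical at 77.4% of aligned bases, with no identical run above 20 bases. Slc25a5 also has a processed pseudogene, Slc25a5-ps, in the annotation, and how the counting treated reads shared with such copies is not given in the sources used here.

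Slc25a3, the mitochondrial phosphate carrier, followed with 1782, 1656 and 1647 CPM. It has a heart and muscle splice form, which counts per gene cannot separate from the ubiquitous one. Its length-corrected level depended on the length used. It stood at 915 ± 41.7 TPM on the exon union of 5550 bases and at 2249 ± 109 TPM on the 1341-base transcript with the longest coding sequence. Slc25a4 exceeded it by 3.20 ± 0.08 on the log2 scale with the exon union, by 1.44 with the shorter transcript and by 1.96 with no length correction. The direction was the same under each, while the size was not settled.

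The partners that make and move ATP were abundant and even between libraries. Of 12 such genes 11 were detected. The ATP synthase subunits Atp5b (7112 ± 184 CPM) and Atp5a1 (6407 ± 153 CPM) and mitochondrial creatine kinase Ckmt2 (2804 ± 49.2 CPM), which hands the phosphate of exported ATP to creatine, were among them. Ckmt1, the ubiquitous form of mitochondrial creatine kinase, had 10, 7 and 8 counts.

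Carriers of the malate-aspartate shuttle, which brings reducing equivalents from cytosolic NADH into the matrix, took 9.88 ± 0.265% of the family's counts. Slc25a11, the oxoglutarate/malate carrier, stood at 718, 715 and 702 CPM, a spread of 1.02-fold from lowest to highest. Slc25a12, the aspartate/glutamate carrier aralar that calcium activates, stood at 267, 252 and 270 CPM. Its relative Slc25a13, known as citrin and as the main form in liver, stood at 119, 118 and 113 CPM.

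Per kilobase, Slc25a12 exceeded Slc25a13 by only 0.22 ± 0.08 on the log2 scale, or 1.17-fold, with 0.21, 0.15 and 0.31 in libraries 1, 2 and 3. Without length correction the log2 difference was 1.17, and with the transcript of the longest coding sequence it was 0.12. Aralar was thus higher in each library, by an amount that rested on length. Slc25a11 exceeded Slc25a10, a carrier of malate and succinate, by 5.95 ± 0.07, or 61.8-fold, and by 5.24 with no length correction. All 4 enzymes of the shuttle were detected, with Mdh1 at 2586 ± 84.2, Mdh2 at 1793 ± 17.3, Got2 at 1388 ± 73.3 and Got1 at 1040 ± 53.9 CPM.

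Slc25a34 was the fourth member by CPM and the fifth by TPM, with 279, 318 and 238 CPM and 312 ± 37.1 TPM. Its paralog Slc25a35, also an orphan, had 8.73, 5.15 and 6.02 CPM. Per kilobase Slc25a35 was below Slc25a34 by a log2 ratio of -5.88 ± 0.48, or 58.7-fold, and by -4.87 with the transcript of the longest coding sequence. In the annotation 31.3% of Slc25a35's exon bases overlap exons of Rangrf on the opposite strand, so its counts are uncertain if the counting ignored strand.

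Slc25a20, the carnitine/acylcarnitine carrier that brings long-chain fatty acids into the matrix, stood at 183, 203 and 188 CPM. Slc25a29, its relative that carries basic amino acids, stood at 6.76, 8.83 and 6.38 CPM. Slc25a20 exceeded it by 3.83 ± 0.18 on the log2 scale per kilobase, or 14.2-fold, and by 4.87 with the transcript of the longest coding sequence. All 7 genes of the carnitine shuttle list were detected, among them the muscle palmitoyltransferase Cpt1b (843 ± 32.1 CPM), the acetyltransferase Crat (772 ± 15.3 CPM) and Cpt2 (258 ± 11.01 CPM).

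**Figure D2:**
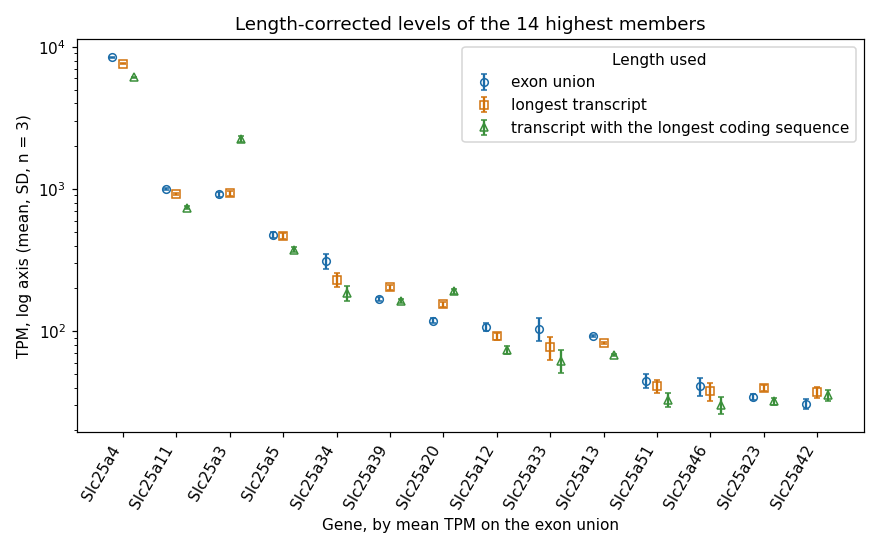
TPM, on a log axis, of the 14 members highest by exon-union length, as mean with SD over the 3 libraries, for each of 3 gene lengths. Slc25a4 is highest by each length, while Slc25a3 lies at 915 TPM by the exon union and at 2249 TPM by the transcript with the longest coding sequence.

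Cofactor carriers were all detected, 7 of 7, and took 2.42 ± 0.137% of the family's counts. Slc25a51, which imports NAD, stood at 79.8, 76.4 and 89.6 CPM. Slc25a42, a carrier of coenzyme A, stood at 60.9, 58.0 and 64.8 CPM and exceeded its relative Slc25a16 by 0.60 ± 0.09 on the log2 scale per kilobase. Slc25a26, for S-adenosylmethionine, averaged 27.7 ± 1.60 CPM. The folate carrier Slc25a32 averaged 16.2 ± 1.67 CPM and the peroxisomal carrier Slc25a17 averaged 13.98 ± 0.951 CPM. All 17 enzymes of the cofactor list were detected.

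Glutathione and iron carriers each had a dominant form. Slc25a39 stood at 161, 152 and 150 CPM and its relative Slc25a40 at 5.02, 5.34 and 4.05 CPM. Slc25a39 exceeded Slc25a40 by 6.62 ± 0.19 on the log2 scale per kilobase, or 98.0-fold, and by 5.01 with no length correction and 5.73 with the transcript of the longest coding sequence. Slc25a28, mitoferrin-2, found in most tissues, stood at 35.1, 40.1 and 33.5 CPM. Slc25a37, mitoferrin-1, which supplies iron for heme in developing red cells, stood at 16.6, 14.7 and 14.05 CPM. Slc25a28 exceeded Slc25a37 by 1.94 ± 0.18, or 3.84-fold, and by 1.26 with no length correction and 2.70 with the transcript of the longest coding sequence.

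Erythroid RNA differed between the libraries, and neither of the 2 carriers linked to heme in red cells, Slc25a37 and Slc25a38, passed the test of a difference between libraries. Of 11 erythroid markers 8 were detected and 6 of 9 tested differed between libraries by edgeR, against 0.575% of all genes. Their sum was 2286, 1096 and 1751 CPM in libraries 1, 2 and 3, while Epb42, with 1, 6 and 1 counts, was not detected and Ermap had 0 counts. Slc25a37 was highest in library 1 and lowest in library 3, while the erythroid sum was lowest in library 2. Slc25a38, a glycine carrier needed for heme synthesis, stood at 28.6, 21.7 and 26.6 CPM, in the same order of libraries as the erythroid sum. The part of red-cell RNA in these carrier levels was not tested. Among 12 iron and heme partners, all detected, Alas2, the red-cell enzyme of the first step of heme synthesis, differed between libraries with 67.4, 26.4 and 45.4 CPM (edgeR adjusted p = 3.59e-07). Without library 1 its adjusted p was 0.222 and without library 2 it was 0.412.

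Pyrimidine nucleotide carriers were both present. Slc25a36 stood at 32.2, 37.4 and 41.2 CPM and Slc25a33 at 77.7, 55.0 and 63.6 CPM. Per kilobase Slc25a36 was below Slc25a33 by a log2 ratio of -3.16 ± 0.39, or 8.96-fold. The size rested on length, since Slc25a36 has 9594 exon bases and Slc25a33 has 1887, and the log2 ratio was -2.29 with the longest transcript and -0.82 with no length correction. All 7 nucleotide partners were detected, among them the adenylate kinase Ak3 (130 ± 6.86 CPM).

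The ATP-Mg/phosphate carriers, which calcium activates and which set the nucleotide content of the matrix, were all of modest level. Slc25a23 stood at 63.4, 62.9 and 55.5 CPM, Slc25a25 at 24.7, 24.2 and 22.4 CPM and Slc25a24 at 15.8, 14.5 and 15.9 CPM. Slc25a23 exceeded Slc25a24 by 1.35 ± 0.16 on the log2 scale per kilobase, and by 1.98 with no length correction. The order of the other pair turned with length. Slc25a25 over Slc25a24 was -0.57 ± 0.13 with the exon union, 0.47 with the longest transcript, 0.68 with the transcript of the longest coding sequence and 0.63 with no length correction. These last 2 carriers are therefore not ordered here.

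Carriers of amino acids outside the malate-aspartate shuttle were at 42.3 CPM or less in every library. Slc25a22, a glutamate carrier, stood at 36.4, 42.3 and 36.6 CPM, and its relative Slc25a18 had 1, 0 and 3 counts. Slc25a44, a carrier of branched-chain amino acids, averaged 28.4 ± 2.42 CPM, and all 7 genes of branched-chain amino acid breakdown were detected, among them Bckdha (458 ± 17.1 CPM). Slc25a15, the ornithine carrier that serves the urea cycle in liver, stood at 11.02, 12.2 and 10.7 CPM, and its relative Slc25a2 had 4, 0 and 0 counts. Of 11 glutamate and ornithine partners 5 were detected. The urea cycle genes Cps1 (43, 0 and 5 counts), Otc (13, 0 and 0) and Arg1 (37, 0 and 5) were not detected, and each had most of its counts in library 1. The urea cycle genes Ass1 (7.19, 8.33 and 6.34 CPM) and Asl (9.64, 9.02 and 8.63 CPM) were detected and showed no such excess in library 1.

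Citrate and dicarboxylate carriers were low per length beside enzymes that use the same acids. Slc25a10 stood at 19.3, 19.5 and 17.5 CPM and averaged 16.3 ± 0.579 TPM. Slc25a1, which exports citrate for lipid synthesis, stood at 10.5, 9.17 and 8.83 CPM and averaged 13.2 ± 1.15 TPM. Slc25a21, a carrier of oxodicarboxylates, had 0, 4 and 4 counts. The 8 enzymes of the citrate and dicarboxylate list were all detected, among them Ogdh at 1858 ± 148 TPM and Idh2 at 2978 ± 74.3 TPM. The pyruvate carrier, which belongs to another family, was above these carriers per length, with Mpc1 at 464 ± 29.6 and Mpc2 at 127 ± 0.850 TPM.

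The remaining members were few and mostly low. Slc25a46, a carrier-like protein of the outer membrane that takes part in mitochondrial dynamics, stood at 62.5, 80.6 and 79.4 CPM. The uncoupling-protein-like Slc25a30, Slc25a27 and Slc25a14 averaged 7.16 ± 1.20, 2.87 ± 0.641 and 1.35 ± 0.293 CPM. Slc25a14 was the lowest detected member by CPM, with 26, 42 and 36 counts, just above the limit in library 1 at 1.03 CPM. Slc25a45 averaged 5.23 ± 0.561 CPM. Slc25a47, known from liver, stood at 4.50, 4.51 and 3.93 CPM. Liver marker RNA summed to 234, 79.2 and 100 CPM in libraries 1, 2 and 3, with 4 of its 5 tested genes differing between libraries by edgeR, against 0.575% of all genes. Trf alone gave 83.1, 65.2 and 85.5 CPM of these sums, most of them in libraries 2 and 3. Alb had 1447, 0 and 29 counts. The part of liver RNA in the level of Slc25a47 was not tested. Slc25a45 over Slc25a47 was 0.39 ± 0.26 on the log2 scale with the exon union, -0.19 with the longest transcript and -0.38 with the transcript of the longest coding sequence, so these too are not ordered.

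Of the 6 members under the limit, Slc25a53 had 1, 16 and 15 counts and Slc25a43 had 0, 1 and 2. Slc25a43 lies next to Slc25a5 on chromosome X with no protein-coding gene between them in the RefSeq order, and Slc25a5 averaged 261 ± 16.4 CPM. Slc25a29 and Slc25a47 are neighbours in the same way on chromosome 12, and both were low.

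**Figure D3:**
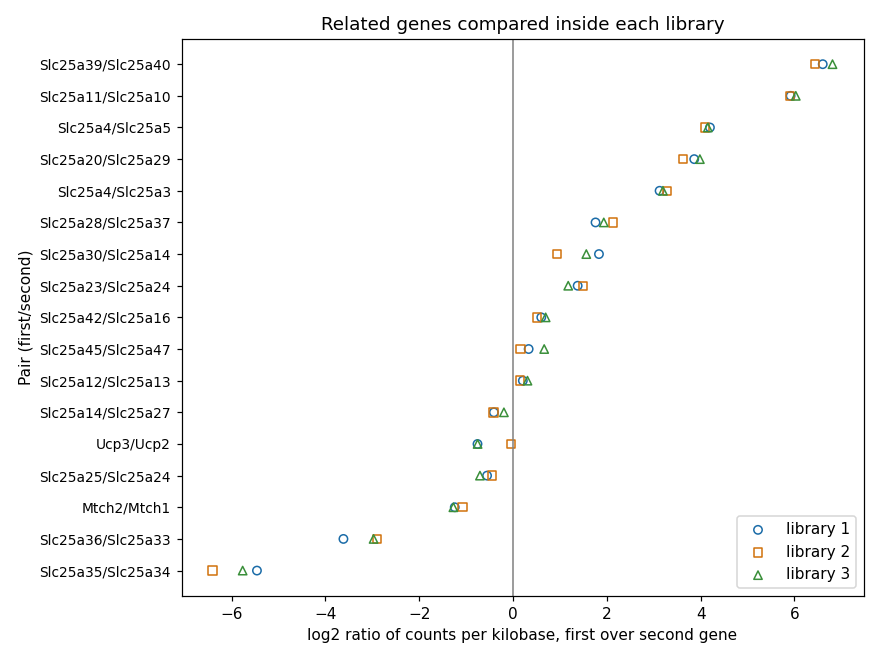
Log2 ratio of counts per kilobase of exon, first gene over second, for the 17 related pairs in which both genes were detected, with 1 point for each library. Every pair keeps its 3 points on 1 side of 0, from Slc25a39 over Slc25a40 at a mean of 6.62 to Slc25a35 over Slc25a34 at a mean of -5.88, and 2 pairs (Slc25a25 over Slc25a24, Slc25a45 over Slc25a47) change sign with other gene lengths.

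The pairs kept their sign between libraries, while their size varied. In all 17 pairs with both genes detected, the 3 libraries had the same sign. Ucp3 over Ucp2 was -0.76, -0.05 and -0.75 on the log2 scale, and Slc25a30 over Slc25a14 ran from 0.94 to 1.83. Under the transcript lengths, 2 of these pairs changed sign. By TPM, the leading 7 members from Slc25a4, Slc25a11, Slc25a3, Slc25a5 and Slc25a34 to Slc25a39 and Slc25a20 were separated, each with its lowest library above the highest library of the next. Slc25a20 and Slc25a12 overlapped, as did Slc25a12 with Slc25a33 and Slc25a33 with Slc25a13. Of the 43 neighbouring pairs in the order 13 were separated, against 23 without library 1, 21 without library 2 and 18 without library 3. The place of Slc25a11 above Slc25a3 held only with the exon union, and Slc25a3 was the higher with the other 2 lengths and with none. With the transcript of the longest coding sequence Slc25a20 also rose to rank 5, at 191 ± 8.02 TPM. It was then above Slc25a34 (185 ± 21.3 TPM) and Slc25a39 (163 ± 6.51 TPM).

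The spread of members between libraries was near that of all genes. The test asked whether a gene differed between libraries more than genes of its level, with edgeR's negative binomial deviance adjusted over all 12521 genes past the low-count filter. All 38 detected members passed that filter and the 6 undetected ones did not. It called 0 members, against 0.575% of all genes, and 2 had an unadjusted p under 0.05, against 5.21%. Both counts are near those shares. An alternative used DESeq2's dispersion trend and size factors, with a Pearson statistic in place of the deviance. It also gave 0 and 2, against 0.543% and 4.07% of all genes. The count of members called was 0 as well with library totals (0.567% of all genes), with no filter (0.932%), and without library 1 (0.15%), library 2 (0.379%) or library 3 (0.315%). The SD of log2 CPM ran from 0.02 for Slc25a16 to 0.40 for Slc25a35, with a median of 0.12 over members and 0.14 over all genes tested. It was below that second median in 23 of 38 members, where 50% of all genes lie by definition. From lowest to highest library the median detected member spanned 1.15-fold, against 1.20-fold over all detected genes. Over 1.5-fold were 3 members, Slc25a35, Slc25a27 and Slc25a14, beside 12.5% of all detected genes. These SDs and folds were not compared with genes of like level.

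The 2 members with an unadjusted p under 0.05 were Slc25a34 and Slc25a33. Slc25a34 was highest in library 2 and lowest in library 3, a 1.34-fold span (edgeR adjusted p = 0.742). Its adjusted p ran from 0.108 with no filter to 0.9999 without library 3. Slc25a33 was highest in library 1 and lowest in library 2, a 1.41-fold span (edgeR adjusted p = 0.814), with adjusted p between 0.597 and 0.9998 under the alternatives.

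**Figure D4:**
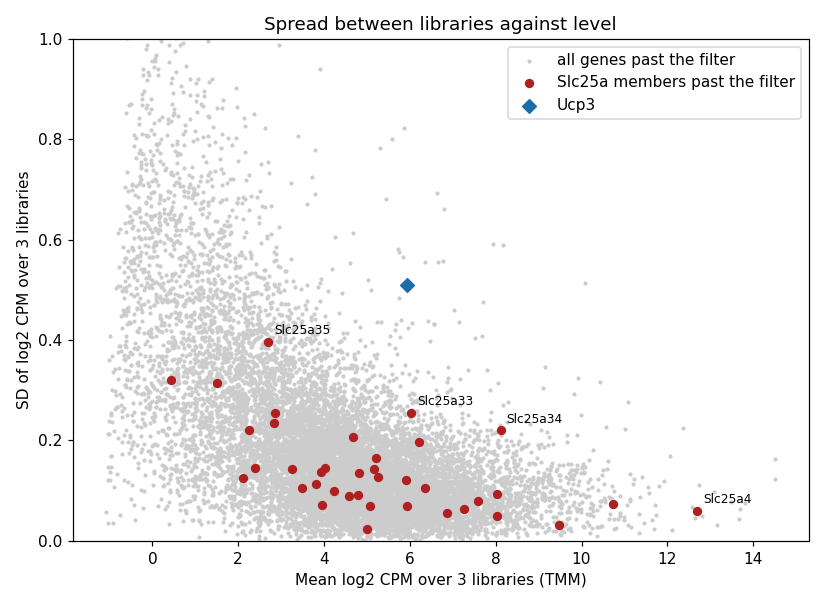
SD of log2 CPM over the 3 libraries against mean log2 CPM, for the 12521 genes past the filter in grey, the 38 Slc25a members past it in red and Ucp3 as a blue diamond. Members lie between 0.02 and 0.40, inside the grey cloud, and 49 genes with an SD above 1 lie outside the plotted range.

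Close relatives under other symbols were set beside the members. Of the 5, 4 were detected. Mtch1, a carrier-like protein of the outer membrane, stood at 193, 191 and 193 CPM, and Mtch2, which inserts proteins into that membrane, at 123, 137 and 121 CPM. Ucp2 stood at 199, 209 and 178 CPM. Ucp3, the uncoupling protein of muscle, stood at 52.8, 90.8 and 47.2 CPM and was the 1 of 4 tested that differed between libraries (edgeR adjusted p = 0.00024). Library 2 decided the call, since without it the adjusted p was 0.999. Without library 1 and without library 3 it was 0.00343 and 0.0124.

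The small differences between libraries leaned the same way in many members. Of the 38 tested, 5 were highest in library 3, against 34.3% of all genes, while 16 were highest in library 1 and 17 in library 2, against 32.1% and 33.6%. Lowest in library 3 were 23, against 35.2% of all genes, while 6 were lowest in library 1 and 9 in library 2, against 31.4% and 33.3%. The median member deviated by 0.03, 0.03 and -0.06 on the log2 scale in libraries 1, 2 and 3, and the median of all genes by 0.00 in each. With library totals in place of TMM (edgeR's scaling of library sizes), 7 members were highest in library 3, against 38.6% of all genes. The median member deviation in library 3 was then -0.04, against 0.02 for all genes. Among the 98 partner genes tested, 16 were highest in library 3, with a median of -0.04, and the genes are not independent of each other. Markers of other heart cells were all detected. The 6 fibroblast markers summed to 1280, 1538 and 1619 CPM in libraries 1, 2 and 3, with Col1a1 and Col3a1 differing between libraries by edgeR. The 6 endothelial markers summed to 1461, 1366 and 1753 CPM and the 8 macrophage markers to 1054, 993 and 974 CPM. Fibroblast and endothelial sums were thus highest in library 3, and their part in the lower carrier levels there was not tested. The heart muscle marker sum was also highest in library 3, at 85102, 80923 and 85795 CPM in libraries 1, 2 and 3. The median log2 deviation of the heart muscle markers in library 3 was -0.003.

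**Figure D5:**
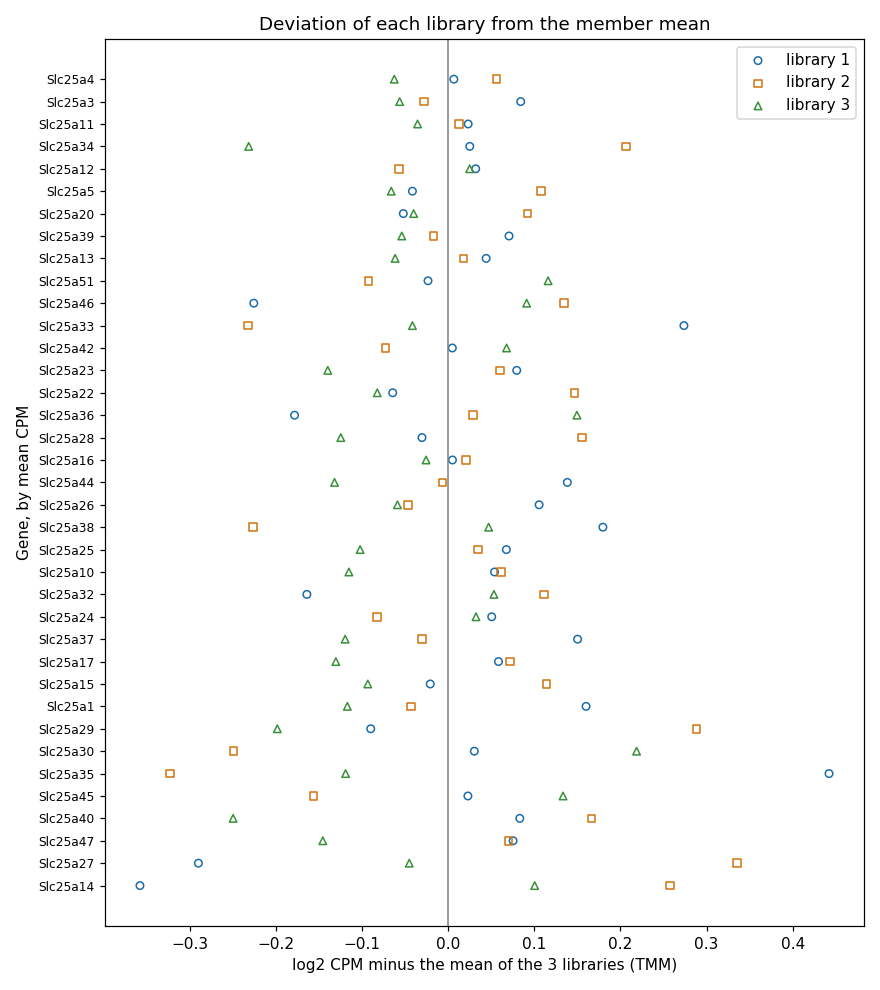
Log2 CPM in each library minus the mean of the 3, for 37 members past the filter, ordered by mean CPM. Library 3 is the lowest of the 3 for 22 of them and the highest for 5, and no member was called different between libraries.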

How the data were processed

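The table the authors deposited holds counts, whole numbers listed by gene symbol and not normalized. Per the submitters' processing notes, HISAT2 2.0.4, Bowtie2 2.2.5 and RSEM were used with build GRCm39, and their order, and the handling of strand and multiply mapped reads, are not given in the sources used here. Because RSEM gives estimated counts, these may be rounded estimates.

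GENCODE M21, made on the previous mouse build, supplied gene lengths, matched by symbol for 16077 genes (96.9%) and all 44 members. Pair ratios used counts per kilobase with 0.5 counts added, for 21 of 23 planned pairs whose genes were in the table. Variation between libraries used edgeR 4.0.16 (R 4.3.3): filterByExpr, TMM, an intercept-only negative binomial fit with trended dispersion, deviance against chi-square with 2 degrees of freedom, and Benjamini-Hochberg adjustment at 0.05. DESeq2 1.42.0 gave the alternative trend, used with its own size factors and a Pearson statistic in place of the deviance. The test was checked only on counts simulated with its own fitted dispersion trend, so genes that depart from that trend were not covered. Alternatives were other normalizations, filters, gene lengths and added counts, and leaving out each library. Coding sequences were aligned with MAFFT. Promoters came from RefSeq (GRCm38.p6).

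The members, lists, pairs and tests were chosen with earlier results of these data known. The text counts every member, though the values of 1 are not reported here and it is left out of the plots by gene, and names partner genes as the highest of a list, those called, or those under the limit. Protein features had been planned and were not computed, and coding sequences were compared in their place. The testis markers were not analysed here. All 3 libraries form 1 group and entered every step.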

Additional observations from a re-analysis of the deposited data

How the results depend on the processing

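The count of members detected (38) was the same at 0.5 CPM, at 10 counts, at 1 TPM and without each library. Of these settings only 1 TPM could have lowered it, since the others are laxer. The count of members differing between libraries (0) was the same under both other normalizations, without the filter, with DESeq2's trend and without each library. Without the filter, 3 of the 44 members tested had an unadjusted edgeR p under 0.05. The share of all genes under that threshold without the filter is not given here. The family's share of counts moved from 1.11% to 1.22% per length, to 0.540% when the 20 most abundant genes, Slc25a4 among them, left both family and total, and to 0.444% without Slc25a4. It ran from 1.09% to 1.12% when a library was left out. Neighbours separated in the order of levels ran from 18 to 23 when a library was left out, which needs fewer libraries to be apart, and from 15 to 18 with other lengths. Gene length set the size of ratios: of 17 pairs, 13 changed more than 1.5 times without length correction, 3 with the longest transcript and 9 with the transcript of the longest coding sequence, the last chosen after seeing the data. Slc25a25/Slc25a24 reversed to 0.63, 0.47 and 0.68 and Slc25a45/Slc25a47 to -0.19 with the longest transcript and -0.38 with the transcript of the longest coding sequence. Changing the counts added moved no pair by more than its SD. Leaving out 1 of 3 libraries cannot move a mean by that much, so it does not test the pairs on this measure. The partner count (98) was the same at 0.5 CPM and without each library, settings that could only have raised it. No paired analysis was possible because the labels give a single group. Depth limits the 6 undetected members, whose counts of 0 to 16 cannot be ordered.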

Other observations

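The 12 lists of partner genes held 105 genes in the table, of which 98 were detected. Against 0.575% of all genes, 1 of the 98 tested differed between libraries by edgeR, Alas2, and 2 had an unadjusted p under 0.05. The median SD of log2 CPM was 0.09 over these partners, against 0.14 over all genes tested. These medians were not matched for level, and many partners are abundant. Among sideroflexins, which carry serine and other amino acids and belong to a separate family, all 5 were detected, with Sfxn3 at 24.2 ± 2.03 TPM and Sfxn4 at 5.73 ± 0.804 TPM highest per length. Vdac1, the main pore of the outer membrane, stood at 1175, 1163 and 1170 CPM in libraries 1, 2 and 3. The enzymes of the glycerol phosphate shuttle, which also moves reducing equivalents into mitochondria, were lower per length than those of the malate-aspartate shuttle. Gpd1 averaged 83.3 ± 9.30, Gpd1l 61.3 ± 1.93 and Gpd2 7.43 ± 0.695 TPM, against 863 ± 57.2 TPM for Got2, the lowest of the 4 malate-aspartate enzymes.

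Slc25a2, the ornithine carrier with 4, 0 and 0 counts, had its counts in library 1, the library in which the urea cycle genes Cps1, Otc and Arg1 and every liver marker except Trf were highest. Trf had 83.1, 65.2 and 85.5 CPM. Its count in library 1 is 1 above the floor of 3, and its part of any liver RNA there was not tested. The coding sequences of related pairs were identical at 45.1% of aligned bases (Slc25a4 and Slc25a3) to 77.4% (Slc25a4 and Slc25a5), and the longest identical run in any pair, Slc25a35 and Slc25a34, was 25 bases. Exons of 7 members overlap protein-coding exons on the opposite strand, 1 of them, Slc25a35, over more than 10% of its bases, and none overlaps on the same strand.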
